A study of Gallus gallus with 34 samples.

Results

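Gene expression in normally developing chick eyes was compared between 3 days and 2 days of the lens period in chicks that wore no lens. The No Lens 3 days group held 4 chicks and the No Lens 2 days group held 3, so 7 of the 34 chicks of the series entered the comparison, chosen by their labels alone. All were male Leghorn/New Hampshire chicks kept on a day/night cycle, in which lens-wear in the other groups began on post-hatch day 5, so 3 days and 2 days stand for post-hatch days 8 and 7. The messenger RNA was extracted from the combined choroid, pigment epithelium and retina of the right eye of single chicks, collected in the early afternoon, and the hour for each chick is not given in the sources used here. Each age is a separate set of chicks that carried no lens and no treatment. The study kept chicks with strong and cohesive biometric responses, which limits them as a sample of all chicks. The 3 No Lens chicks of 1 day (post-hatch day 6) shared the fit of 10 chicks, and the groups with a negative or positive lens served only to ask whether the change differed with a lens.

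The tissue holds a circadian clock of its own. In this clock CLOCK or NPAS2 pairs with ARNTL or ARNTL2 to drive the period and cryptochrome genes, whose proteins switch off their own drivers, and NFIL3 represses further targets. Photoreceptors are among the retinal cells that carry it, and several genes of the light response and of melatonin synthesis follow the time of day. In the chick, a diurnal bird with a cone-rich retina, the light response runs from visual pigment through transducin and a phosphodiesterase to channels gated by cyclic GMP, and calcium-dependent proteins restore the resting state.

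Total counts were 5048832 to 10835985 per chick at 3 days and 3078121 to 9901800 at 2 days, within the range of 1592763 to 13765634 over the series, so that a gene at 1 CPM (its count scaled to library size by the TMM method) rests on few reads. Neither totals nor the mitochondrial share of counts (means 5.41% at 3 days and 5.19% at 2 days) passed a test between the ages (two-sided exact permutation p = 0.6 and 0.743, smallest possible p 0.0286). Markers of every tissue layer were present. The summed CPM of 8 photoreceptor markers (of 13 listed) was 3740 to 4406 at 3 days and 4452 to 5237 at 2 days, that of 6 bipolar cell markers (of 10) was 762 to 803 at 3 days and 820 to 875 at 2 days, and neither range overlapped. Müller glia (5024 to 5211 at 3 days and 4748 to 5621 at 2 days, 8 of 9 markers) and pigment epithelium (2145 to 2375 at 3 days and 2238 to 2293 at 2 days, 10 of 11) did overlap. In such bulk tissue fewer cells of a type and less RNA per cell cannot be told apart. Markers of scleral cartilage (10 tested of 16 listed), a tissue outside those named for the samples, summed to 499 to 563 CPM at 3 days. At 2 days they summed to 505 to 613 CPM. Striated muscle markers (7 tested of 16 listed) summed to 198 CPM in replicate 4 of 3 days, against 27.4 to 33.9 in the other chicks of that day and 27.8 to 38.5 at 2 days.

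In each age 1 chick lay nearer to the other day than its group mates did. Genes at an unadjusted p-value below 0.01 were taken from the edgeR fit without a chick, and the chick was then placed between the means of the days on those genes. Replicate 1 of 3 days lay at a median of 25.1% of the way from the 2-day mean to that of its own day over 253 genes, while replicates 2, 3 and 4 lay at 79.2, 116.9 and 81.1%. Replicate 1 of 2 days lay at -4.73% of the way from the 3-day mean to its own over 277 genes, against 75.1 and 61.3% for replicates 2 and 3. These genes were chosen by their p-value, so the places are a description. By the number of genes over 1.5-fold from the mean of its group mates, replicate 1 of 3 days did not stand out, with 377 of 10044 genes with a mean of 5 CPM or more, against 367, 427 and 429 in replicates 2, 3 and 4. Replicate 1 of 2 days had 980 such genes, against 425 and 691 in replicates 2 and 3. In replicate 1 of 2 days, 801 genes were over 1.5-fold below that mean, and 550 of these, 68.7%, were also that far down in replicate 1 of 1 day, where they made up 68.6% of 802 such genes. Among the 53 genes that DESeq2 called between the ages, 2 were in this set, beside 801 of the 10044 genes. A gene with such a spread among the 2-day chicks is less easily called, so this count does not show how far the chick bears on the calls. The part of these chicks in the results was not tested beyond leaving each out.

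**Figure D1:**
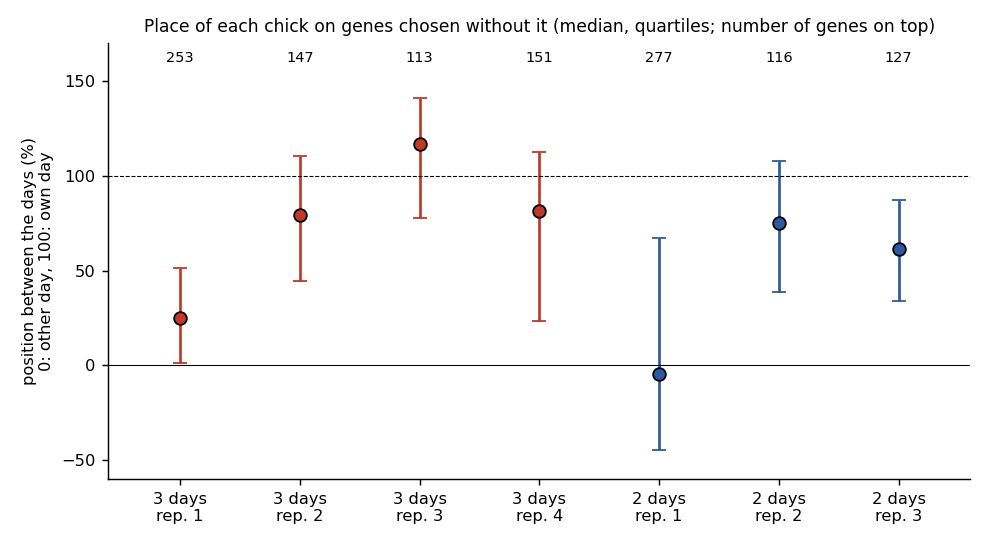
Place of each chick between the mean of the other day (0%) and the mean of the rest of its own day (100%), on genes at an unadjusted p-value below 0.01 in the edgeR fit without that chick. Points are medians, bars run from the lower to the upper quartile over genes, and the number of genes stands on top. Replicate 1 of 3 days sat at 25.1% and replicate 1 of 2 days at -4.73%, while the other 5 chicks sat between 61.3 and 116.9%.

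The first question was which genes differed between the ages over this single day. The calendar day and the hour of collection of each chick are not given in the sources used here. Age therefore cannot be told apart from the day or hour of collection. The quasi-likelihood test of edgeR called 1 of 11460 genes at an adjusted p-value below 0.05 (0.00873%), NFIL3, which rose. The unadjusted p-value was below 0.05 in 562 genes (4.9%), 327 of them higher (2.85%) and 235 lower at 3 days. DESeq2 with its beta prior (the study used DESeq2 but does not state the prior, which shrinks fold changes towards 0) called 53 of 7999 genes with an adjusted p-value (0.663%), of which 34 rose and 19 fell. All 53 had an unadjusted p-value below 0.05 in edgeR, and in 47 the values of the ages did not overlap, which was so for 594 of all genes (5.18%), with 352 higher (3.07%) and 242 lower (2.11%) at 3 days. Without replicate 1 of 3 days edgeR called 56 of 11420 genes (0.49%), 27 higher and 29 lower, and 33 of the 53 DESeq2 genes were among them. Without any other chick of either day, 1 at a time, edgeR called 0 genes (430 to 1067 at an unadjusted p-value below 0.05). Replicate 1 of 3 days lay towards the 2-day chicks in many leading genes, so leaving it out widens their difference. The p-values given below without that chick are therefore a description, and no gene passed with another chick left out. In 29 of the 53 genes (54.7%) the 3-day chicks lay outside all 6 younger chicks, 20 above and 9 below, against 223 of all genes (1.95%). The chicks of both ages also entered the DESeq2 call. So neither share of the called genes, without overlap or outside the younger chicks, is on the same footing as that of all genes.

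**Figure D2:**
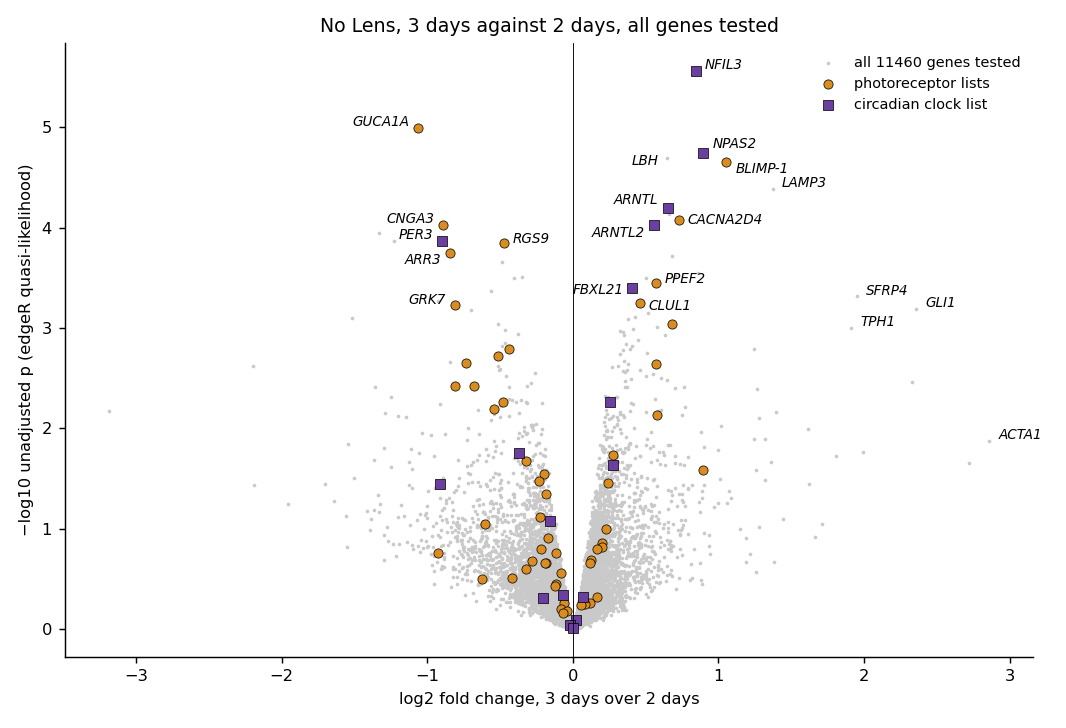
Change of every tested gene between 3 and 2 days without a lens. The x axis is the edgeR log2 fold change of 3 days over 2 days and the y axis is −log10 of the unadjusted p-value, with circadian clock genes as purple squares and genes of the photoreceptor lists as orange circles among the 11460 genes in grey. NFIL3 (higher) and GUCA1A (lower) stand at the top, and names are given for the list members with the smallest p-values and for a few other genes of the text.

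NFIL3 (ENSGALG00000015209), a transcriptional repressor in clock output, was at 155, 167, 206 and 178 CPM in the 3-day chicks, against 91.5, 99.7 and 105 CPM in the 2-day chicks. Every 3-day chick thus lay above every 2-day chick. Its level was 177 ± 21.6 CPM at 3 days (SD, n = 4) and 98.6 ± 6.65 CPM at 2 days (n = 3), a log2 fold change of 0.85 ± 0.11 (SE, edgeR adjusted p = 0.0311, DESeq2 adjusted p = 5.08e-09). The edgeR call was lost without any 1 of 6 chicks. Its adjusted p-value was then 0.119, 0.0795 and 0.176 without replicates 2, 3 and 4 of 3 days, and 0.15, 0.293 and 0.0674 without replicates 1, 2 and 3 of 2 days, while without replicate 1 of 3 days it was 0.00251. The log2 fold change stayed between 0.75 and 0.90 in these fits.

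Of the drivers of the clock, NPAS2, ARNTL and ARNTL2 rose by the DESeq2 test. NPAS2 was at 113, 164, 154 and 179 CPM at 3 days, against 83.3, 90.1 and 73.3 CPM at 2 days. Its log2 fold change was 0.90 ± 0.13 (SE, edgeR adjusted p = 0.0512, DESeq2 adjusted p = 3.57e-07), and replicate 1 was the lowest of the 3-day chicks. ARNTL, the usual partner of CLOCK and NPAS2, was at 194, 261, 279 and 211 CPM at 3 days, against 152, 149.9 and 148 CPM at 2 days, where the chicks lay close together. It rose by 0.65 ± 0.11 on the log2 scale (SE, edgeR adjusted p = 0.098, DESeq2 adjusted p = 4.9e-05). ARNTL2, its paralogue, was at 183, 195, 217 and 205 CPM at 3 days, against 119, 133 and 159 CPM at 2 days, with a log2 fold change of 0.55 ± 0.10 (SE, edgeR adjusted p = 0.098, DESeq2 adjusted p = 0.000165). CLOCK was at 104 to 112 CPM at 3 days and 83.9 to 99.4 CPM at 2 days. This difference of 0.25 ± 0.08 on the log2 scale did not pass either test (edgeR adjusted p = 0.584, DESeq2 adjusted p = 0.296), although the groups did not overlap.

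Among the repressors of the loop, PER3 fell. It was at 83.9, 59.1, 51.3 and 54.1 CPM at 3 days, against 125, 119 and 101 CPM at 2 days, so that all 3-day chicks were below all 2-day chicks and replicate 1 was nearest to them. The log2 fold change was -0.90 ± 0.17 (SE, edgeR adjusted p = 0.109, DESeq2 adjusted p = 0.000233). PER2 was at 687, 494, 499 and 404 CPM at 3 days, against 698, 679.8 and 643 CPM at 2 days. Here replicate 1 lay among the 2-day chicks and the groups overlapped. The log2 fold change was -0.37 ± 0.14 with all chicks (edgeR adjusted p = 0.816) and -0.53 ± 0.09 without replicate 1 (edgeR adjusted p = 0.0332). CRY1, a cryptochrome, had 329 ± 24.6 CPM at 3 days and 271 ± 41.3 CPM at 2 days (SD, n = 4 and 3) and did not pass (edgeR adjusted p = 0.859). FBXL21, whose protein acts on cryptochromes in the mouse, was at 94.1 to 113 CPM at 3 days and 75.3 to 83.7 CPM at 2 days, and rose by the DESeq2 test (log2 fold change 0.41 ± 0.09 in edgeR, edgeR adjusted p = 0.185, DESeq2 adjusted p = 0.0205).

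Of 27 clock genes listed, 18 were in the table and 17 were tested in edgeR. DESeq2 gave no adjusted p-value to BHLHE40 and USP2, so it could not call them. DESeq2 called 6 of the 17, with NFIL3, NPAS2, ARNTL, ARNTL2 and FBXL21 higher and PER3 lower, beside 0.663% of all genes. This list and those below were chosen with earlier results of these data known, so their shares are a description. Altogether 10 had an unadjusted edgeR p-value below 0.05, 7 higher and 3 lower, beside 4.9% of all genes. The median log2 fold change of the list was 0.02, beside 0.000475 for all genes, since members moved in both directions. BHLHE40, a repressor of the loop, was among the 10, at 5.68 to 12.9 CPM at 3 days and 10.9 to 29.1 CPM at 2 days. The other 7 tested members, among them HLF, a clock output factor, had unadjusted p-values of 0.0831 or more.

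**Figure D3:**
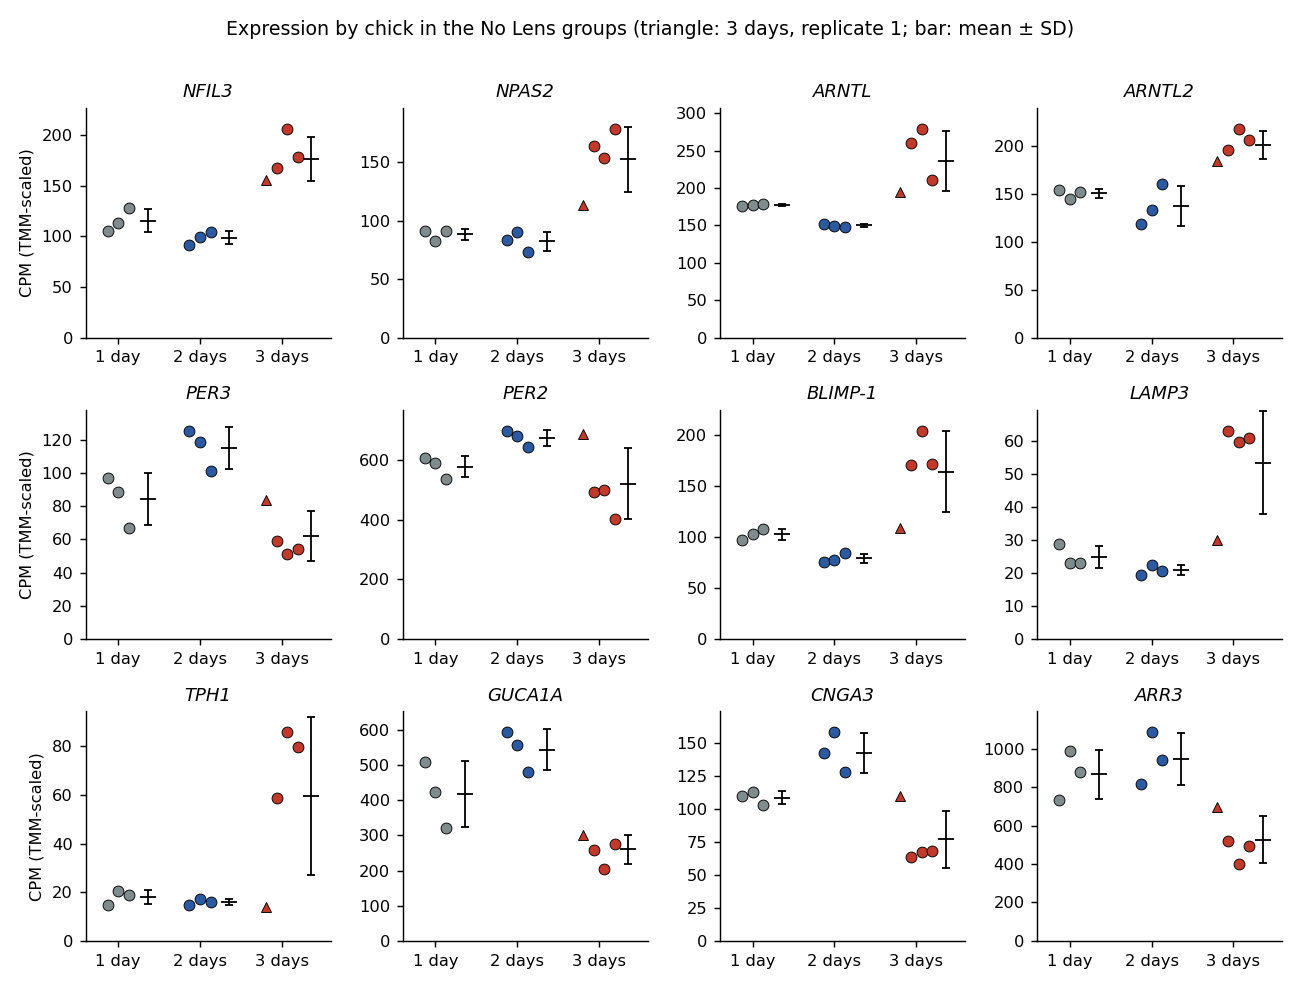
CPM of 12 genes in each No Lens chick at 1, 2 and 3 days, with the mean ± SD beside the points (n = 3, 3 and 4) and replicate 1 of 3 days as a triangle. The drivers NPAS2, ARNTL and ARNTL2 lie higher and PER3 lower at 3 days than in any 2-day chick, and among 3-day chicks the triangle lies nearest to the 2-day chicks in each of the 12 genes, within their range for PER2 and just below it for TPH1 (13.8 CPM, against 14.9 to 17.2 CPM at 2 days). The 12 genes were picked from those of the text. In FBXL21 and SFRP4, which are not drawn, replicate 2 was the 3-day chick nearest to the 2-day chicks.

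In the cone cascade, DESeq2 called CNGA3, ARR3 and GRK7 lower. CNGA3, a subunit of the cyclic GMP-gated channel of cones, was at 109.5, 63.5, 67.4 and 68.1 CPM at 3 days, against 142, 158 and 128 CPM at 2 days. Replicates 2 to 4 lay close together and replicate 1 was set between them and the 2-day chicks. The log2 fold change was -0.89 ± 0.16 (SE, edgeR adjusted p = 0.098, DESeq2 adjusted p = 7.95e-05). ARR3, the cone arrestin that stops activated pigment, was at 695, 519, 402 and 493 CPM at 3 days, against 814, 1085 and 943 CPM at 2 days. GRK7, the kinase that marks cone pigment for arrestin, was at 174, 106, 104 and 88.6 CPM at 3 days, against 207, 218 and 194 CPM at 2 days. In both genes the groups did not overlap, and DESeq2 called both lower (adjusted p = 6.33e-05 and 0.00335), with edgeR log2 fold changes of -0.84 ± 0.16 and -0.81 ± 0.18 (edgeR adjusted p = 0.128 and 0.228). CNGA3 and ARR3 were each called in 5 of 15 alternative settings and GRK7 in 4. In an edgeR fit of all 34 chicks of the series their adjusted p-values were 0.399, 0.709 and 0.715.

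Of 16 cone genes listed, 10 were tested. DESeq2 called 3 of them, all lower, beside 0.238% of all genes called lower by that test, and 7 had an unadjusted edgeR p-value below 0.05, all lower, beside 2.05% of all genes. Of the 10, 9 had a negative fold change and the list median was -0.36, beside 0.000475 for all genes. The summed photoreceptor markers were 3740 to 4406 CPM at 3 days and 4452 to 5237 CPM at 2 days. That sum includes ARR3, PDE6C and GNAT2 of the cone list, so its lower level is not separate evidence. The part of photoreceptor content in this result was not tested. Without replicate 1 of 3 days edgeR called 5 of the 10 lower, beside 0.254% of all genes. These included SLC24A4, a calcium exchanger, and PDE6C, the cone phosphodiesterase subunit. SLC24A2, another exchanger of the cone list, had a log2 fold change of -0.23 ± 0.10 and did not pass (edgeR adjusted p = 0.951, and 0.266 without replicate 1). Replicate 1 was the 3-day chick nearest to the 2-day chicks in CNGA3, ARR3, GRK7 and PDE6C, so leaving it out widens the difference. With any other chick left out edgeR called 0 genes. PDE6C was at 545, 344, 393 and 344 CPM at 3 days, against 520.4, 608 and 576 CPM at 2 days. Its fall of 0.66 ± 0.10 on the log2 scale without replicate 1 (edgeR adjusted p = 0.0124) was 0.48 ± 0.14 with it (edgeR adjusted p = 0.584).

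Rod genes were mixed. SLC24A1, the rod calcium exchanger, rose by the DESeq2 test, with 98.4, 149.6, 142 and 126 CPM at 3 days against 76.6, 81.6 and 83.9 CPM at 2 days (log2 fold change 0.68 ± 0.16 in edgeR, edgeR adjusted p = 0.275, DESeq2 adjusted p = 0.00941). It was the only 1 of the 9 rod genes tested, of 13 listed, that DESeq2 called, beside 0.663% of all genes. PDE6B, a catalytic subunit of the rod phosphodiesterase, was at 168, 107, 93.9 and 90.3 CPM at 3 days, against 237, 207 and 156 CPM at 2 days. It had a log2 fold change of -0.81 ± 0.23 that passed the quasi-likelihood test only without replicate 1 (edgeR adjusted p = 0.486 with it and 0.0473 without it). CNGB1, a channel subunit of rods, was at 86.1 to 129 CPM at 3 days and 62.8 to 90 CPM at 2 days and did not pass (edgeR adjusted p = 0.63). The median log2 fold change of the list was 0.12, and 6 of 9 were positive. The difference between the rod and the cone list was not tested.

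Genes of calcium feedback and shut-off that rods and cones share moved both ways. GUCA1A, which makes guanylate cyclase respond to falling calcium, was at 301, 259, 206 and 275 CPM at 3 days, against 593, 557 and 479.7 CPM at 2 days. Its level at 3 days was 0.479 times that at 2 days, with no overlap and a log2 fold change of -1.06 ± 0.15 (SE, edgeR adjusted p = 0.0512, DESeq2 adjusted p = 9.27e-09). GUCA1A was called in 8 of 15 alternative settings. In an edgeR fit of all 34 chicks of the series its adjusted p-value was 0.866, at a log2 fold change of -1.07. RGS9, which speeds the shut-off of transducin, was at 145 to 182 CPM at 3 days and 213 to 247 CPM at 2 days (log2 fold change -0.47 ± 0.09 in edgeR, edgeR adjusted p = 0.109, DESeq2 adjusted p = 0.00111). In the opposite direction, CACNA2D4, an auxiliary calcium channel subunit of photoreceptor synapses, was at 265, 376, 377 and 423 CPM at 3 days, against 207, 217 and 230.0 CPM at 2 days (log2 fold change 0.73 ± 0.13 in edgeR, edgeR adjusted p = 0.098, DESeq2 adjusted p = 2.47e-05). PPEF2, a photoreceptor phosphatase, was at 99.9 to 139 CPM at 3 days and 68.5 to 89.9 CPM at 2 days (log2 fold change 0.57 ± 0.12 in edgeR, edgeR adjusted p = 0.169, DESeq2 adjusted p = 0.00504). These 4 were the members called by DESeq2 among 11 tested of 14 listed, beside 0.663% of all genes, and the list median was -0.22. CACNA2D4 is counted in this list although its place is the synapse and not feedback or shut-off.

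In the matrix around the outer segments, DESeq2 called the proteoglycans IMPG1 and IMPG2 lower. IMPG1 was at 961, 635, 711 and 685 CPM at 3 days, against 1025, 1234 and 949 CPM at 2 days, and IMPG2 was at 347, 265, 276 and 273 CPM at 3 days, against 435, 389 and 356 CPM at 2 days. The DESeq2 adjusted p-values were 0.0281 and 0.0383, while neither gene passed the quasi-likelihood test of edgeR (adjusted p = 0.373 and 0.338). The groups overlapped in IMPG1 and not in IMPG2, and in both genes replicate 1 was nearest to the younger chicks. CLUL1, a clusterin-like protein of cones, rose by the DESeq2 test, with 1087 to 1411 CPM at 3 days and 829 to 956 CPM at 2 days (log2 fold change 0.46 ± 0.10 in edgeR, edgeR adjusted p = 0.223, DESeq2 adjusted p = 0.00167). In this list of structure and matrix 16 of 19 genes were tested, with 1 called higher and 3 lower by DESeq2, beside 0.425% and 0.238% of all genes, and a median of -0.09. Purpurin (ENSGALG00000015374), a retinol-binding protein known from the chick retina, was at 1239, 467, 359 and 488 CPM at 3 days, against 1977, 2015 and 1481 CPM at 2 days. Its log2 fold change of -1.52 ± 0.35 with all chicks passed in the likelihood ratio test of edgeR (adjusted p = 0.0063) but not in its quasi-likelihood test (adjusted p = 0.258) or in DESeq2 (adjusted p = 0.278), and was -2.06 ± 0.21 without replicate 1 (edgeR adjusted p = 0.000844). With any other chick left out, the edgeR quasi-likelihood adjusted p-value of purpurin was 0.376 to 0.725.

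Of the photoreceptor transcription factors, DESeq2 called 2, both higher. BLIMP-1 (ENSGALG00000015388), which in the mouse favours the photoreceptor over the bipolar cell fate, was at 109, 171, 204 and 171 CPM at 3 days, against 75.4, 77.6 and 84.2 CPM at 2 days. The level was 2.08 times as high at 3 days, with no overlap and a log2 fold change of 1.05 ± 0.16 (SE, edgeR adjusted p = 0.0512, DESeq2 adjusted p = 3.17e-07). ESRRB, an orphan receptor of mouse rods, was at 158 to 249 CPM at 3 days and 121 to 164 CPM at 2 days and was called higher by DESeq2 (adjusted p = 0.0317) although the groups overlapped. The remaining 7 of the 9 factors tested, of 16 listed, were called by neither test (DESeq2 called 0.425% of all genes higher). DESeq2 gave no adjusted p-value to some of these 7, NR2E3 among them, and could not call them. Of the 9, 6 had a negative fold change, and the list median was -0.12.

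TPH1, the rate-limiting enzyme of the synthesis of serotonin, from which photoreceptors make melatonin, had a wide spread among the 3-day chicks. It was at 13.8, 58.9, 85.8 and 79.6 CPM at 3 days, against 14.9, 17.2 and 16.2 CPM at 2 days. The other 3-day chicks lay well above the 2-day range while replicate 1 lay below it. With all chicks the log2 fold change was 1.91 ± 0.45 (SE, edgeR adjusted p = 0.285, DESeq2 adjusted p = 0.0422), and without replicate 1 it was 2.23 ± 0.17 (edgeR adjusted p = 0.000142). ASMT, the last enzyme of melatonin synthesis, was at 23.3 to 36.9 CPM at 3 days and 35.3 to 46.7 CPM at 2 days and did not pass (edgeR adjusted p = 0.596, DESeq2 adjusted p = 0.269). AANAT, the enzyme before it, was at 3.65 to 8.66 CPM at 3 days, against 4.13, 11.6 and 15.9 CPM at 2 days, where replicate 1 was the low chick. DRD4, a dopamine receptor of photoreceptors, had 220 ± 25.3 CPM at 3 days and 268 ± 13.1 CPM at 2 days (SD, n = 4 and 3) and did not pass (edgeR adjusted p = 0.7). TPH1 was the only member called by DESeq2 among the 15 tested in the list of melatonin, serotonin and dopamine genes, beside 0.663% of all genes, and the list median was -0.04. DESeq2 gave no adjusted p-value to some of the 15, AANAT and TPH2 among them, and could not call these.

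Outside these pathways, LBH, a transcriptional cofactor of limb bud and heart development, was at 553, 680.0, 755 and 725 CPM at 3 days, against 435, 424 and 438 CPM at 2 days. The log2 fold change was 0.65 ± 0.10 (SE, edgeR adjusted p = 0.0512, DESeq2 adjusted p = 3.57e-07), and the 1-day chicks, at 571 to 633 CPM, also lay above those of 2 days. LAMP3, a lysosomal membrane protein, was at 30.05, 63.1, 59.7 and 61 CPM at 3 days, against 19.5, 22.5 and 20.7 CPM at 2 days. It rose by 1.37 ± 0.22 on the log2 scale (SE, edgeR adjusted p = 0.0791, DESeq2 adjusted p = 1.01e-06), with replicate 1 far below the other 3-day chicks. MCF2L2, an exchange factor of small GTPases, was at 163 to 224 CPM at 3 days and 119 to 128 CPM at 2 days (DESeq2 adjusted p = 6.33e-05), and NET1, another such factor, was at 63.4 to 79.9 CPM at 3 days and 37.2 to 52.5 CPM at 2 days (DESeq2 adjusted p = 0.00101). SLC16A8 is a monocarboxylate transporter that exports lactate from the pigment epithelium. An entry annotated as it (ENSGALG00000012288) fell by the DESeq2 test, with 441 to 557 CPM at 3 days and 592 to 667 CPM at 2 days (log2 fold change -0.38 ± 0.09 in edgeR, edgeR adjusted p = 0.289, DESeq2 adjusted p = 0.0145). Another entry under the same symbol (ENSGALG00000002728) did not fall (log2 fold change 0.07 ± 0.09, edgeR adjusted p = 0.999). CPLX4, a complexin of ribbon synapses, and ELOVL2, which elongates polyunsaturated fatty acids, were also called by DESeq2. CPLX4 had 57.9 ± 23.2 CPM at 3 days and 104 ± 13.1 CPM at 2 days (DESeq2 adjusted p = 0.0269), and ELOVL2 had 322 ± 37.8 CPM at 3 days and 250.3 ± 4.29 CPM at 2 days (SD, n = 4 and 3, DESeq2 adjusted p = 0.0317).

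Some genes with large fold changes were expressed at low levels. SFRP4, a secreted antagonist of Wnt proteins, was at 32.1, 25.6, 63.5 and 28.9 CPM at 3 days, against 6.25, 5.94 and 17.7 CPM at 2 days (log2 fold change 1.95 ± 0.42 in edgeR, edgeR adjusted p = 0.205, DESeq2 adjusted p = 0.0176). GLI1, a transcription factor and target of hedgehog signalling, was at 1.47, 5, 5.88 and 3.73 CPM at 3 days, against 0.807, 0.66 and 0.758 CPM at 2 days. Its log2 fold change of 2.36 ± 0.52 passed the quasi-likelihood test without replicate 1 (edgeR adjusted p = 0.0209) and not with it (edgeR adjusted p = 0.238), while the likelihood ratio test of edgeR called it with all chicks (adjusted p = 0.00659), and the 1-day chicks, at 1.44 to 3.11 CPM, also exceeded those of 2 days. With any other chick left out, the edgeR quasi-likelihood adjusted p-value of GLI1 was 0.389 to 0.72. WNT9A, a Wnt ligand, was at 0.932 to 1.22 CPM at 3 days and 1.77 to 2.97 CPM at 2 days, and CNTF, a ciliary neurotrophic factor, was at 1.47 to 2.69 CPM at 3 days and 2.97 to 7.76 CPM at 2 days. Neither passed (edgeR adjusted p = 0.57 and 0.486).

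**Figure D4:**
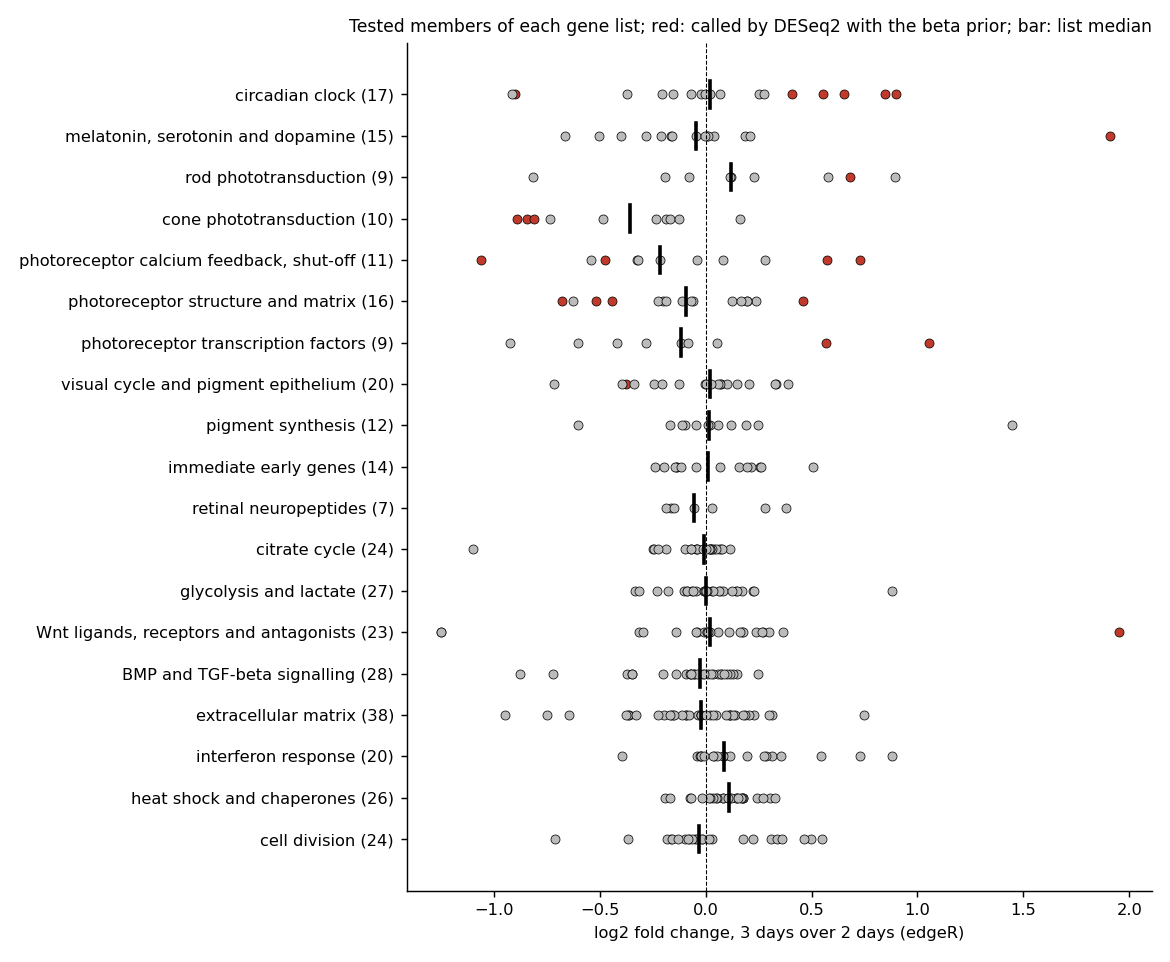
Log2 fold change of 3 days over 2 days (edgeR, x axis) of every tested member of 19 gene lists, with the number tested in brackets. Red points were called by DESeq2 with the beta prior, black bars are list medians and the dashed line is the median of all genes. The cone list lies furthest to the left, with a median of -0.36, and red points are found in the clock, melatonin, photoreceptor, pigment epithelium and Wnt lists.

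In each of the other lists DESeq2 called 0 or 1 gene. DESeq2 called 0 of the 12 genes of pigment synthesis, 14 immediate early genes, 7 neuropeptides, 24 citrate cycle and 27 glycolysis genes that were tested, and 0 of 28 BMP and TGF-beta, 38 extracellular matrix, 20 interferon, 26 heat shock and 24 cell division genes, beside 0.663% of all genes, a share at which lists of this length would seldom hold a call. DESeq2 gave no adjusted p-value to some members of each list, and to many in the neuropeptide, BMP and TGF-beta, interferon and cell division lists. Such members could not be called, and 0.663% is a share of the genes with an adjusted p-value. At an unadjusted edgeR p-value below 0.05 these lists held 0 to 2 genes each (2 of the 14 immediate early genes, both higher), beside 4.9% of all genes. Their medians lay between -0.05 and 0.11, the highest in the heat shock list, where 21 of 26 members were positive, beside 5747 of all 11460 genes. EGR1, an immediate early transcription factor, was at 43.8 to 75.7 CPM at 3 days and 35.1 to 44.7 CPM at 2 days (edgeR adjusted p = 0.769). In the visual cycle and pigment epithelium list 1 of 20 genes was called, the entry ENSGALG00000012288 of SLC16A8, and in the Wnt list 1 of 23, SFRP4.

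The second question was whether the change over this day differed in chicks with a lens, whose tissue came from separate birds. With all 34 chicks in 1 fit, edgeR called 0 of 11882 genes for a difference between the No Lens change and the change under the negative lens, the positive lens or the mean of both, with unadjusted p-values below 0.05 in 409 (3.44%), 491 (4.13%) and 471 (3.96%) of them. The 3 contrasts share the No Lens chicks. DESeq2 without the prior called 0, 0 and 3 genes, the last being NFIL3, ARNTL and CPM (the gene of carboxypeptidase M).

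In this fit the log2 change of NFIL3 was 0.84 ± 0.13 without a lens, 0.10 ± 0.12 under the negative lens and 0.04 ± 0.12 under the positive lens (SE). Lens groups were at 175 ± 22.1 CPM (negative) and 175 ± 21.5 CPM (positive) at 3 days, and at 164 ± 24.1 CPM and 171 ± 9.51 CPM at 2 days (SD, n = 4 each), so that their 2-day level was near the 3-day level without a lens. The difference between the No Lens change and the mean lens change was 0.77 ± 0.16 (edgeR unadjusted p = 3.99e-05, adjusted p = 0.237). ARNTL changed by 0.11 ± 0.10 under the negative and 0.05 ± 0.10 under the positive lens, a difference from No Lens of 0.57 ± 0.13 (edgeR adjusted p = 0.637). The gene of carboxypeptidase M, a membrane peptidase, was at 5.71 to 7.31 CPM in the No Lens 3 days chicks and 10.1 to 14 CPM in the No Lens 2 days chicks. Its change of -0.92 ± 0.25 without a lens stood beside 0.66 ± 0.24 under the negative and 0.42 ± 0.23 under the positive lens, a difference of -1.46 ± 0.30 (edgeR adjusted p = 0.237). PER3 had the same sign in all 3 conditions, with -0.34 ± 0.22 under the negative and -0.43 ± 0.23 under the positive lens.

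**Figure D5:**
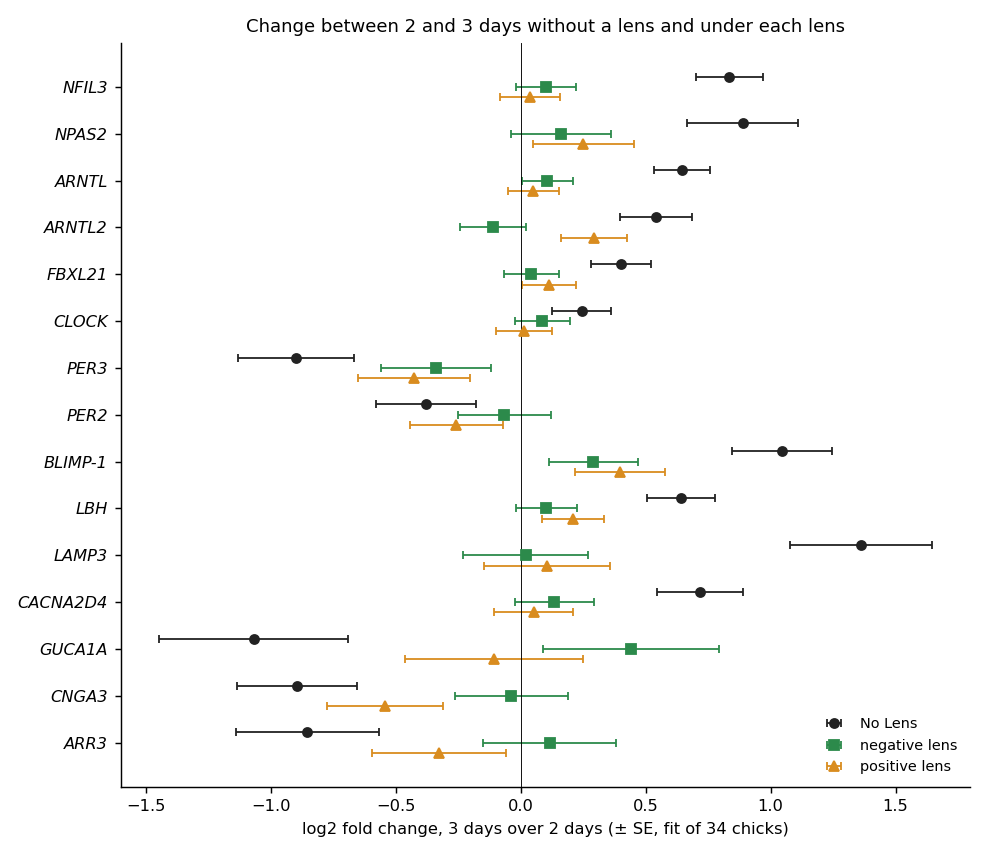
Log2 change between 2 and 3 days (3 days over 2 days, x axis, ± SE from the edgeR fit of 34 chicks) of 15 genes without a lens (black circles), under the negative lens (green squares) and under the positive lens (orange triangles). The No Lens change is the furthest from 0 in each of the 15 genes, which were picked from the No Lens comparison, and for NFIL3 and ARNTL the lens changes lie at or below 0.11. EdgeR called 0 genes for a difference between the conditions.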

How the data were processed

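Per the labels and the methods of the study, RNA of RIN above 8.3 was made into stranded single-end libraries. The authors trimmed reads (CutAdapt, Trimmomatic), aligned them to galGal4 (Tophat2, Bowtie2), counted with HTSeq the reads unique to 1 gene and deposited the raw counts of 13067 genes per chick as whole numbers. Tool versions and the strand setting are not given in the sources used here, so reads of overlapping or antisense genes may be mixed, and near-identical genes are counted too low. The column of replicate 1 of 3 days carries a suffix whose meaning is not given.

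Groups came from the labels. Counts were compared in R 4.3.3 with edgeR 4.0.16 (filterByExpr, minimum count 10 and total 15; TMM; quasi-likelihood test with a mean per day in the 10 No Lens chicks; Benjamini-Hochberg; called below 0.05). DESeq2 1.42.0 (beta prior on or off), the edgeR likelihood ratio test, limma-voom (limma 3.58.1), RLE scaling, no filter, other sample sets and each chick left out were alternatives. DESeq2 gave no adjusted p-value to 5066 of 13065 genes. List members counted as tested are those in the edgeR fit, and DESeq2 could not call those without its adjusted p-value. Standard errors come from the quasi-likelihood F or, where larger, the p-value. In all replicate pairs counts differed past sampling noise (chi-square per gene 3.12 to 10.31). Replicate numbers follow the order of accession, name chicks only and pair none.

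Named were every gene edgeR called, the 12 smallest p-values and 5 largest folds per direction without overlap, all tested clock genes, up to 4 genes of each other list and 3 per lens contrast. CPLX4 and ELOVL2, called by DESeq2, were named after their values were seen. Members and lists were chosen with earlier results of these data known. Of the genes, 1426 have no symbol, and those and shared symbols keep their identifiers. RefSeq sequences were not used here. Some genes are counted in their lists but are not reported here by name.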

Additional observations from a re-analysis of the deposited data

Results flagged for a closer look

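In these results a single 3-day chick lay further from its group than the spread of the other chicks, by a test of the gap to the nearest chick over the whole range of 4. Chance alone would mark about 1 in 20 groups, and 14 of the 151 named genes were marked, as were 613 of all 11460 genes (5.35%). Replicate 1 of 3 days was the chick apart in 6 of the 14, and over all genes in 172 of the 613, against 171, 116 and 154 for replicates 2, 3 and 4, so that over all genes it was apart about as often as replicate 2. It had 30.05 CPM for LAMP3, against 59.7 to 63.1 CPM in the other 3-day chicks, 86.09 CPM for CNGB1, against 124 to 129 CPM, 109.5 CPM for CNGA3, against 63.5 to 68.1 CPM, 347.3 CPM for IMPG2, against 265 to 276 CPM, and 1239 CPM for purpurin (ENSGALG00000015374), against 359 to 488 CPM. HBE1, a globin of red cells, was at 5.346 CPM in this chick and 0.609 to 1.12 CPM in the others. Except for HBE1, these values lay towards the 2-day chicks. Without this chick the edgeR adjusted p-value was 0.000142 for LAMP3, 0.000188 for CNGA3, 0.039 for IMPG2, 0.138 for CNGB1 and 0.000844 for purpurin, and HBE1 was not tested.

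Replicate 4 of 3 days was apart in 3 striated muscle genes, with 78.22 CPM for ACTA1 (4.87 to 6.16 CPM in the others), 26.76 CPM for TNNT3 (1.62 to 1.84 CPM) and 15.01 CPM for CASQ2 (4.67 to 5 CPM), and in its total count of 10835985, against 5048832 to 5397894 in the others. Replicate 2 had 94.12 CPM for FBXL21 (110.2 to 113 CPM in the others), 4.812 CPM for WNT7B (1.12 to 1.47 CPM) and 34.65 CPM for MX, an interferon-induced gene (2.4 to 3.65 CPM). Replicate 3 had 63.51 CPM for SFRP4 (25.6 to 32.1 CPM) and 215.3 CPM for TTR, the transthyretin of pigment epithelium (147 to 156 CPM). The part of muscle or other tissue in these samples was not tested.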

How the results depend on the processing

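The count of genes called rested on the test and on the chicks. Against 1 gene in edgeR's quasi-likelihood test, DESeq2 called 53 with its beta prior and 51 with none, the edgeR likelihood ratio test 47, limma-voom 13 (6 higher, 7 lower), RLE scaling 5, no filter 5, the fit of only the 7 chicks 2 and the fit of all 34 chicks 4. With 1 chick left out, the count ran between 0 and 56. The value of 56 came without replicate 1 of 3 days and 0 without any other chick. NFIL3 was called in each of the first 8 alternatives, with an edgeR, limma or DESeq2 adjusted p-value of at most 0.037. In the fit of all 34 chicks the edgeR adjusted p-value was 0.0103 for NFIL3, 0.0195 for ARNTL and 0.0422 for BLIMP-1. It was 0.397 for NPAS2, 0.399 for CNGA3, 0.709 for ARR3, 0.715 for GRK7, 0.866 for GUCA1A and 0.866 for purpurin. For the contrasts between No Lens and the lenses, edgeR called 0 genes under every setting run, and DESeq2 without the prior called 3 for the mean of both lenses.

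The log2 fold change turned sign when a chick was left out in 4 genes that no setting called. The range was -0.608 to 2.02 for TNNT3 and -0.00443 to 0.834 for CASQ2 (lowest without replicate 4 of 3 days), -0.869 to 1.21 for MX (lowest without replicate 2 of 3 days) and -1.09 to 0.0731 for PMEL (highest without replicate 3 of 2 days). Scaling moved the median of all genes by less than 0.02. No paired analysis was possible because each age is a separate set of chicks. Depth limits the genes near 1 CPM, such as GLI1 and WNT9A.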

Other observations

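In some genes the 2-day chicks stood apart from both other ages. ADAMTS8, a secreted metalloproteinase, was at 5.28 to 8.05 CPM at 1 day, 1.92 to 3.54 CPM at 2 days and 5.48 to 8.66 CPM at 3 days. F2RL1, a receptor cut by proteases, was at 1.36 to 3.07 CPM at 1 day, 5.28 to 9.48 CPM at 2 days and 1.77 to 4.98 CPM at 3 days. The gene of carboxypeptidase M was at 6.61 to 8.62 CPM at 1 day, 10.1 to 14 CPM at 2 days and 5.71 to 7.31 CPM at 3 days. The quasi-likelihood test of edgeR called none of them between 3 and 2 days (adjusted p = 0.338, 0.63 and 0.221), its likelihood ratio test called ADAMTS8 and the gene of carboxypeptidase M (edgeR adjusted p = 0.0483 and 0.0162), and DESeq2 gave them no adjusted p-value.

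PMEL, a pigment granule protein, was lowest in replicate 1 of both younger ages, with 15.2 to 43.1 CPM at 3 days, against 17.4, 53.5 and 92 CPM at 2 days, and 28.6, 83.8 and 75.1 CPM at 1 day. In the contrast with the positive lens the smallest p-values included CXCR4, a chemokine receptor, which was at 33.6 to 43.8 CPM in the No Lens 3 days chicks and 31.4 to 35.7 CPM in the No Lens 2 days chicks. Its log2 change of 0.18 ± 0.11 without a lens stood beside -0.56 ± 0.11 under the positive lens (edgeR adjusted p of the difference = 0.729).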
